A study of Mus musculus with 34 samples.

Results

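Ins1, Ins2, Iapp and Ucn3, the genes of insulin, amylin and urocortin 3, were followed in mouse pancreatic islets after beta-cell ablation and on 2 diets. They were taken by name from a table of read counts for 48709 genes, and each of the 4 names had 1 row. RNA of islets was sequenced with a stranded mRNA kit in 34 libraries, of which 33 fell into 9 labelled groups. Every mouse, controls included, is labelled RIP-DTR HTZ. This transgene places a receptor for diphtheria toxin (DT) under the rat insulin promoter, so that cells which use that promoter become open to the toxin. The groups without a toxin are CTRL (n = 3, no time or diet in the label), CTRL SD (n = 3) and CTRL HFD (n = 4), both at 10 weeks. The groups given DT are DT 5 DPA (n = 4), DT 30 DPA (n = 4), DT SD (n = 4) and DT HFD (n = 3), where DPA counts from the ablation and the last pair was taken at 10 weeks. The groups given streptozotocin (STZ, a toxin that enters beta cells through their glucose transporter) at 75 mg/kg are STZ SD (n = 4) and STZ HFD (n = 4), also at 10 weeks. SD and HFD are the diets as labelled. The labels give no age, sex or strain and do not say whether animals were pooled. Whether replicates are separate animals is not in the labels either, so p-values measure the spread between these samples, which may be technical.

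Mice have a pair of insulin genes. Ins2 matches the single insulin gene of other mammals and Ins1 is a copy that arose from a transcript. Their protein is cut by the convertases PCSK1 and PCSK2, trimmed by carboxypeptidase E and stored with zinc in granules. Amylin (Iapp) is released from the same granules, is amidated by the enzyme PAM, and acts through the calcitonin receptor with a RAMP partner. Urocortin 3 (Ucn3) is a peptide of the corticotropin-releasing family that beta cells begin to make late in maturation. It acts on the receptor CRHR2 of delta cells, which answer with somatostatin, an inhibitor of insulin release.

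The promoter sequences are shown as a description. Pdx1 and Neurod1, the best known activators of insulin genes, recognise short letter patterns that can be found in them. Whether these patterns bear on the levels below was not tested. Of the 4 genes, 3 had an entry in the RefSeq promoter table (GRCm38.p6), and Ins2 had none. Each line gives the 250 bases before the RefSeq start of the gene on its own strand, 5' to 3'. Capitals mark TAAT, the core of homeodomain sites such as those of PDX1, and CATCTG, an E-box of the kind bound by NEUROD1 with TCF3, on either strand (ATTA and CAGATG on the other).
Ins1 (chr19:52264047-52264296, plus strand): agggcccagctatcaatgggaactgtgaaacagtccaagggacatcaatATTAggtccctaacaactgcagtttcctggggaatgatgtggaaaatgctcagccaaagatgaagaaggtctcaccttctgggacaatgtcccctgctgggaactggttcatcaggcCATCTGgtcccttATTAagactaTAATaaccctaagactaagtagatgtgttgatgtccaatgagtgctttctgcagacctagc
Iapp (chr6:142298175-142298424, plus strand): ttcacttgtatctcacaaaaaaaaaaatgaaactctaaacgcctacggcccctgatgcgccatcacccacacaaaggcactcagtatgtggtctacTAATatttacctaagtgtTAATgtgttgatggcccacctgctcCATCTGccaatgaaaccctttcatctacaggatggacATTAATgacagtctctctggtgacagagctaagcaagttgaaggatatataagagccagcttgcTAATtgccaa
Ucn3 (chr13:3945350-3945599, minus strand): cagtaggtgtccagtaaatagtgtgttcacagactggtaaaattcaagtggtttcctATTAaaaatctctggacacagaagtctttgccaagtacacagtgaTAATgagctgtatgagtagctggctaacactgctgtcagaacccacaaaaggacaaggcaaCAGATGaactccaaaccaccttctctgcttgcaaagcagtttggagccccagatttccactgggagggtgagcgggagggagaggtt

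All 3 windows held TAAT and CATCTG. Ins1 had 3 copies of TAAT, which begin 201, 71 and 61 bases before the start, and 1 CATCTG at 84 bases, inside the longer form GCCATCTG. Iapp had 5 copies of TAAT, at 154, 136, 74, 72 and 10 bases, of which those at 74 and 72 overlap on opposite strands, and 1 CATCTG at 111 bases. Ucn3 had TAAT at 193 and 148 bases and 1 CATCTG, on the other strand, at 87 bases. Among 32851 RefSeq promoter windows of the same length, 54.9% held TAAT, 14.4% held CATCTG and 1.1% held GCCATCTG on either strand. A match of this kind describes the letters and does not by itself show binding.

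In the GENCODE M21 annotation of GRCm38, the assembly the labels call mm10, Ins1 (ENSMUSG00000035804) lies on chr19:52264297-52265476 with 1 transcript of 1062 exon bases. Ins2 (ENSMUSG00000000215) lies on the minus strand of chr7:142678656-142743381, with 9 transcripts that cover 1312 exon bases. Iapp (ENSMUSG00000041681) spans chr6:142298423-142303961 and Ucn3 (ENSMUSG00000044988) the minus strand of chr13:3940688-3945349. Reads of the insulin genes can in part not be told apart: 4.84% of all 30-base windows of Ins1 transcripts, and 0.69% of the 50-base windows, also occur in Ins2, and the longest shared stretch has 56 bases. Ratios of Ins1 to Ins2 carry that uncertainty. Iapp lies within Slco1a5, a transporter gene of the opposite strand, which was counted 1 to 31 times per library, against 27850 to 197035 counts of Iapp.

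The libraries held between 11083117 and 18918348 counts. The islet label fits the hormone genes, since Gcg, the glucagon gene of alpha cells, stood between 7351 and 65303 CPM in the 33 libraries. CPM stands for counts scaled to the library total with edgeR's TMM factors. RNA of other cells was present in unequal amounts. A list of 23 acinar markers took between 0.534% and 57.5% of the counts, the highest in STZ HFD replicate 4, and over 10% in 13 libraries. A list of 10 enterocyte markers summed to over 500 CPM in 8 libraries. In bulk RNA, fewer cells of a type and less RNA per cell cannot be told apart, and this holds for every level below.

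The 4 genes kept the same order per transcript length in all 33 libraries. In the authors' deposited TPM, Ins2 was highest with a median of 130209 (range 30198 to 260291). Ins1 followed with 65416 (14771 to 125388), then Iapp with 14077 (4304 to 23765) and Ucn3 with 294 (62.1 to 521). By TPM, Ins2 was the most abundant gene in the median library and Ins1 the next, Iapp ranked 11 and Ucn3 ranked 224. Ins1 and Ins2 together took 3.28% to 26.3% of all counts of a library. The lowest count of any of the 4 genes in any library was 604 for Ucn3, so counting error is small beside the spread between libraries.

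Between groups the levels differed about 3-fold from the highest to the lowest mean, and libraries of 1 group often differed as much. The mean CPM was highest in DT SD for each gene: 158444 ± 6951 for Ins2, 68858 ± 4638 for Ins1, 12578 ± 318 for Iapp and 356 ± 26.4 for Ucn3 (SD, n = 4). DT 30 DPA was next for each gene. The lowest mean stood in DT HFD for the insulin genes, at 52951 ± 29571 CPM for Ins2 and 20618 ± 11322 for Ins1 (SD, n = 3). It stood in DT 5 DPA for the other pair, at 3696 ± 1498 CPM for Iapp and 119 ± 59.7 for Ucn3 (SD, n = 4). In this order of 9 groups each neighbouring pair overlapped for each gene. By deposited TPM, DT 30 DPA was above DT SD for Ins2 and Ucn3, so the order of these groups rests on the scaling. The plot of levels by group shows how tight the CTRL SD and DT SD libraries were beside the others: the coefficient of variation was 2.52% to 7.40% in DT SD and 5.99% to 7.94% in CTRL SD over the 4 genes, and up to 66.9% (Iapp in CTRL) elsewhere.

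**Figure D1:**
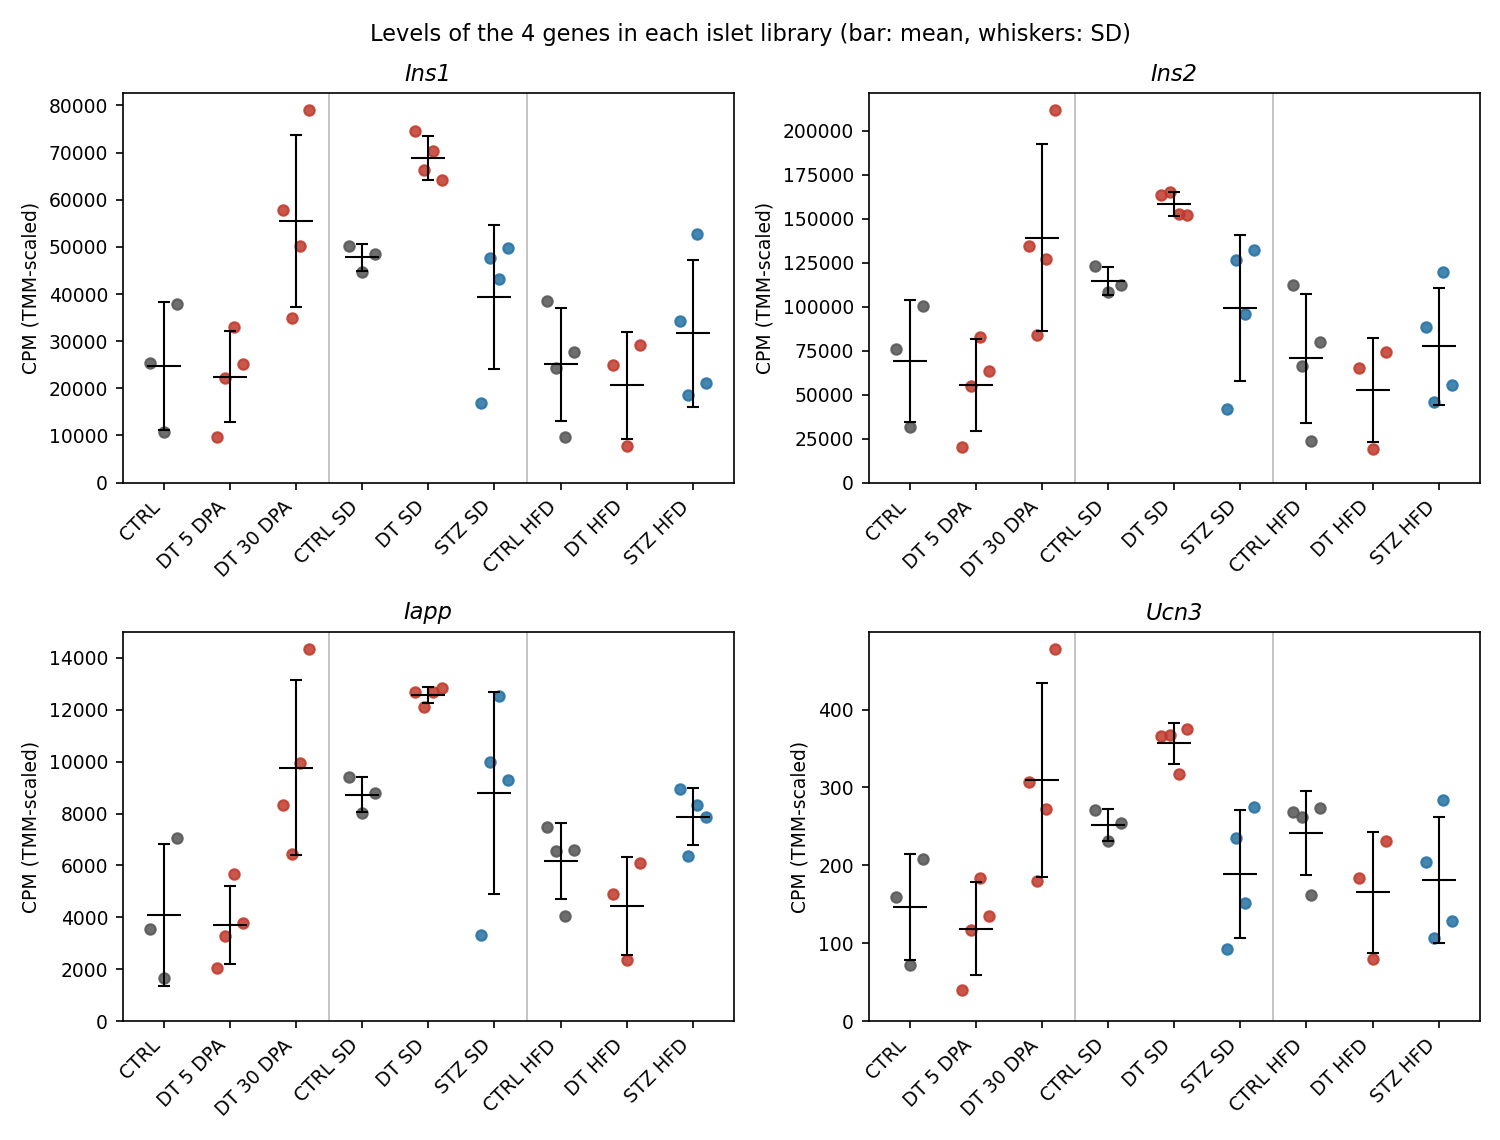
Levels of Ins1, Ins2, Iapp and Ucn3 in CPM (linear axes from 0) in each of 33 islet libraries by group; points are libraries, the horizontal line is the mean and the whiskers the SD. DT SD has the highest mean in each panel and a narrow spread, while the highest single library in each is DT 30 DPA replicate 4.

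The first comparison asks how the hormone genes stood 5 DPA after DT. Ins1 was at 25380.2, 10789 and 37982 CPM in CTRL replicates 1 to 3 and at 9639, 22109.7, 32921 and 25151 CPM in DT 5 DPA replicates 1 to 4. Ins2 was at 75913, 31786 and 100393 CPM in CTRL and at 20348, 54890.2, 82741 and 63593 CPM at 5 DPA. CTRL replicate 2 and DT 5 DPA replicate 1 were the lowest of their groups for each of the 4 genes. Iapp, at 3534, 1669 and 7044 CPM, and Ucn3, at 159, 72.6 and 208 CPM, had the same order among the CTRL libraries. At 5 DPA Iapp was at 2065, 3276, 5669 and 3772 CPM and Ucn3 at 39.6, 117, 183 and 135 CPM, and the groups overlapped for each gene. None of the 4 genes passed edgeR's quasi-likelihood test, with log2 fold changes of -0.14 (SE 0.51) for Ins1, -0.32 (SE 0.55) for Ins2, -0.14 (SE 0.42) for Iapp and -0.30 (SE 0.44) for Ucn3. The test called 5.39% of all 17616 genes in this comparison, and no member had an unadjusted p below 0.05 or was called by DESeq2. The smallest adjusted p was 0.7659 (Ucn3). The signs turned with the libraries used. Without CTRL replicate 3 all 4 were above 0 (0.03 for Ucn3 to 0.51 for Iapp), and without DT 5 DPA replicate 1 Iapp (0.05) and Ins1 (0.11) were. Enterocyte markers were also unequal, and summed to over 500 CPM in CTRL replicate 2 and DT 5 DPA replicates 1, 2 and 4. Without the 8 such libraries of the series Iapp stood at 0.10, Ins1 at 0.06 and Ucn3 at 0.01. Macrophage markers summed to 4912 to 7422 CPM at 5 DPA against 652 to 1725 CPM in CTRL, and 9 of 9 were higher by the edgeR test. Stroma and endothelium markers summed to 3169 to 4301 CPM against 960 to 1534 CPM, and 3 of 8 were higher. The part of these cells in the comparison was not tested.

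At 30 DPA, Iapp, Ucn3 and Ins1 were higher than at 5 DPA. Iapp was at 8328, 6459.7, 9948 and 14348 CPM in DT 30 DPA replicates 1 to 4, all above the 2065 to 5669 CPM at 5 DPA (1.40 on the log2 scale with SE 0.39, edgeR adjusted p = 0.009). Ucn3 was at 307, 180.5, 272 and 478 CPM, where replicate 2 lay just under the highest library at 5 DPA (1.38 on the log2 scale with SE 0.41, adjusted p = 0.01356). Ins1 was at 57757, 34976, 50111 and 78966 CPM, again without overlap (log2 fold change 1.30 with an SE of 0.48, adjusted p = 0.04223). Ins2, at 134307, 83818, 127307 and 211683 CPM, did not overlap with 5 DPA either but missed the threshold (1.33 on the log2 scale with SE 0.52, adjusted p = 0.05233). Replicate 4 was the highest and replicate 2 the lowest library at 30 DPA for each gene. So 3 of 4 genes passed the test, where it called 30.5% of all genes in either direction and 16.5% as higher. Of all genes, 16.8% were higher at 30 DPA without overlap, as 3 of the 4 were here. DESeq2 called all 4.

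These calls were not stable in every subset. Iapp passed with any 1 library left out (adjusted p = 0.005 to 0.0431 in edgeR). Ucn3 missed the threshold without DT 30 DPA replicate 4 (adjusted p = 0.064) or DT 5 DPA replicate 1 (0.0546). Ins1 missed it when DT 30 DPA replicate 1, 3 or 4 or DT 5 DPA replicate 1, 2 or 4 was left out (adjusted p = 0.0558 to 0.1425). Enterocyte markers summed to 2556, 4193 and 1549 CPM in DT 5 DPA replicates 1, 2 and 4 and to 3510.2 CPM in DT 30 DPA replicate 2, against 27.1 to 63.9 CPM in the other 4 libraries. Without the 8 enterocyte-rich libraries of the series DT 5 DPA keeps 1 library, assumed to vary like the other groups, and none of the 4 genes was called (log2 fold changes 0.91 for Ins1 to 0.93 for Ucn3 and Iapp, adjusted p = 0.3209 for Iapp to 0.5698 for Ins2). Without the 13 libraries of the series with over 10% acinar counts (here DT 5 DPA replicate 3 and DT 30 DPA replicate 3), the log2 fold changes were larger, from 1.56 for Ins1 to 1.70 for Ucn3, and adjusted p was 0.0588 for Iapp to 0.1282 for Ins2. DT 5 DPA libraries also held more RNA of macrophages, with a marker sum of 4912 to 7422 CPM against 478 to 1074 CPM at 30 DPA, where 9 of 9 markers were lower by the edgeR test. Stroma and endothelium markers summed to 3169 to 4301 CPM against 1127 to 1344 CPM. The part of these cells in the difference was not tested.

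Genes around the hormones moved the same way between 5 and 30 DPA. Of 14 transcription factors known to act on insulin genes, 11 rose and 1 fell, with a median log2 fold change of 1.29 against 0.02 over all genes. The rises with the smallest adjusted p were Isl1 (1.55), Pax6 (1.47), Glis3 (1.35) and Foxa2 (1.41), with edgeR adjusted p between 0.00161 and 0.00285. Of the factors named with the motifs above, chosen with their values in view, Pdx1 (1.20) and Neurod1 (1.30) rose as well, and Tcf3 was at -0.36 (adjusted p = 0.168). Of 14 genes of hormone processing and granules, 13 rose, led by Ptprn2 (1.54), the zinc transporter of granules Slc30a8 (1.54), the convertase chaperone Scg5 (1.42) and the convertase Pcsk2 (1.39), and only Vgf missed (0.62, adjusted p = 0.327). All 13 measured beta-cell genes that are no hormone rose, led by the incretin receptor Glp1r (1.91), with Abcc8 (1.41) and Kcnj11 (1.23), the subunits of the potassium channel that gates secretion. Slc30a8, Pcsk1, Pdx1, Nkx6-1 and Mafa stand in more than 1 of these lists.

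Markers of other endocrine cells rose too. Of 7 alpha-cell markers 6 rose, among them Ttr by 1.58 (edgeR adjusted p = 0.00153), and of 5 delta and PP-cell markers 3 rose, among them Sst by 2.23 (adjusted p = 0.0171). Of 7 genes that are high in immature beta cells, 1 rose and 2 fell, among them Npy (1.98) and Ldha (-1.70). Npy spread widely at 30 DPA, at 167 ± 221 CPM against 42.6 ± 34.4 CPM at 5 DPA (SD, n = 4 each). The list summed to 969 CPM in the enterocyte-rich DT 30 DPA replicate 2 and to 229 to 277 CPM in the other libraries of that group. Of 9 tested receptors, receptor partners and receptor substrates of these hormones only Igf1r passed, with a rise of 0.85 (adjusted p = 0.0105), and Crhr2 was at 0.73 (adjusted p = 0.467). Calcr, the calcitonin receptor, was too low to be tested. Among 8 measured relatives of the peptides, Igf1 fell by 1.30 and Insl6 by 1.71.

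DT 30 DPA also lay above CTRL on average, but no member was called. The log2 fold changes were 1.26 (SE 0.43) for Iapp, 1.17 (SE 0.53) for Ins1, 1.08 (SE 0.45) for Ucn3 and 1.01 (SE 0.57) for Ins2, with edgeR adjusted p of 0.08341, 0.1678, 0.1359 and 0.2656. The unadjusted p was below 0.05 for 3 of the 4, and edgeR called 0.233% of all genes. DESeq2 called 1 member, Iapp (adjusted p = 0.02599), as did edgeR without CTRL replicate 3 (log2 fold change 1.91, adjusted p = 0.00826). CTRL replicate 3 reached 37982 CPM of Ins1, above DT 30 DPA replicate 2, and the groups overlapped for each gene. The untreated groups also differed. Mean Ins1 was 24717 CPM in CTRL, 47763 in CTRL SD and 25073 in CTRL HFD, beside 55453 in DT 30 DPA. In the same order, Ins2 was at 69364, 114651 and 70664 beside 139279 CPM, Iapp at 4082, 8734 and 6162 beside 9771 CPM, and Ucn3 at 147, 252 and 241 beside 309 CPM. CTRL was not tested against the other untreated groups. DT SD at 10 weeks did not differ detectably from DT 30 DPA: edgeR called none of the 4 genes (log2 fold changes 0.19 for Ins2 to 0.36 for Iapp, smallest adjusted p = 0.7958) and 0.0568% of all genes, no member had an unadjusted p below 0.05, and DESeq2 called none.

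On SD at 10 weeks the DT libraries lay above the untreated ones for each gene without overlap. Iapp was at 9403, 8022 and 8775 CPM in CTRL SD and at 12700.5, 12114, 12667 and 12832 CPM in DT SD. Ucn3 was at 271, 231 and 254 CPM in CTRL SD and at 366, 367, 317 and 375 CPM in DT SD. Ins1 was at 50197, 44613 and 48479.7 CPM against 74649, 66332, 70333.5 and 64119.9 CPM, and Ins2 at 123307, 108317 and 112329 CPM against 163539, 165308, 152886 and 152043 CPM. Every DT SD library was thus above every CTRL SD library, by a mean log2 fold change of 0.53 for Ins1 (SE 0.52), 0.47 for Ins2 (SE 0.56), 0.53 for Iapp (SE 0.42) and 0.50 for Ucn3 (SE 0.44). Such a separation was found upward in 8.39% of all genes. In edgeR, whose spread is shared by all 9 groups, none of the 4 genes was called (smallest adjusted p = 0.7716 for Iapp), none had an unadjusted p below 0.05, DESeq2 called none, and 0.0341% of all genes passed. With these 2 groups fitted alone, the log2 fold changes were alike and the SEs smaller, 0.10 for Ucn3 to 0.13 for Ins2. The unadjusted edgeR p was then 0.000703 for Ucn3, 0.00167 for Iapp, 0.00297 for Ins1 and 0.00648 for Ins2, and none passed after adjustment (adjusted p = 0.1017 for Ucn3 to 0.1739 for Ins2). Lymphocyte markers, 12 in number, summed to 242 to 1765 CPM in DT SD and 1986 to 3799 CPM in CTRL SD, also without overlap. The share of acinar counts was 7.70% to 25.8% in DT SD and 1.47% to 25.0% in CTRL SD. Their part in the difference was not tested.

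After STZ the hormone genes on SD spread widely. Ins2 was at 41891, 126665, 96180.0 and 132241 CPM in STZ SD replicates 1 to 4, and Ins1 at 16796, 47665, 43272 and 49713 CPM. Iapp was at 3322, 9998, 12514 and 9308 CPM and Ucn3 at 92.5, 235, 151 and 275 CPM. Replicate 1 was the lowest library for each gene, while replicate 3 was the highest for Iapp and the second lowest for Ucn3. Against CTRL SD the groups overlapped and the log2 fold changes ran from -0.42 (SE 0.44) for Ucn3 to 0.01 (SE 0.42) for Iapp, and edgeR called none of the 4 (smallest adjusted p = 0.8952) and 0.00568% of all genes. Against DT SD, all STZ SD libraries were lower in Ins1, Ins2 and Ucn3, as 4.29% of all genes were, with log2 fold changes of -0.81, -0.67 and -0.92. Again edgeR called none of the 4 (Ucn3 had the smallest adjusted p, 0.2102, and the only unadjusted p below 0.05) and 2.56% of all genes. DESeq2 called none in either comparison. STZ SD replicates 1 and 4 held 11001 and 19730.4 CPM of enterocyte markers, against 48.3 to 74.5 CPM in the DT SD and CTRL SD libraries.

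Iapp, Ins1 and Ins2 were lower in DT HFD islets than in DT SD islets. Iapp was at 4880.5, 2362 and 6082 CPM in DT HFD replicates 1 to 3 against 12114 to 12832 CPM in DT SD (-1.50 on the log2 scale with SE 0.44, edgeR adjusted p = 0.01651). Ins1 was at 24897.5, 7779 and 29176.5 CPM (-1.74 on the log2 scale with SE 0.54, adjusted p = 0.02344) and Ins2 at 65075, 19244 and 74533 CPM (-1.58 on the log2 scale with SE 0.58, adjusted p = 0.04731). Ucn3, at 184, 80.0 and 232 CPM, missed the threshold (-1.11 on the log2 scale with SE 0.45, adjusted p = 0.07114). Each DT HFD library was below each DT SD library for all 4 genes, and replicate 2 was the lowest throughout. So 3 of the 4 genes passed, where 23.5% of all genes did in either direction and 8.46% as lower. Of all genes, 18.4% were lower without overlap. DESeq2 called all 4, Ucn3 with an adjusted p of 0.03613.

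This comparison rested on few libraries. Without DT HFD replicate 2 none of the 4 genes was called (adjusted p = 0.1525 for Iapp to 0.3484 for Ucn3, log2 fold changes of -0.78 for Ucn3 to -1.35 for Ins1) and edgeR called 0 of all genes. Leaving out any other library left Iapp called, and Ins1 too except without DT SD replicate 1 (adjusted p = 0.0515) or DT SD replicate 3 (0.0508), while Ins2 missed in each case (0.0571 to 0.0836). With the replicate number as a block Ins2 missed as well (adjusted p = 0.06181). The acinar share was 1.74% to 4.90% in DT HFD and 7.70% to 25.8% in DT SD. With the acinar score as a covariate none of the 4 passed (log2 fold changes -0.93 for Ucn3 to -1.47 for Ins1, adjusted p = 0.07076 for Iapp to 0.1987 for Ucn3). Without the 13 libraries of over 10% acinar counts, which leaves 1 DT SD library, the log2 fold changes were -1.18 for Ucn3 to -1.71 for Ins1, and again none passed (adjusted p = 0.6054 for Iapp to 0.6068 for Ucn3). Lymphocyte markers summed to 2591 to 9213 CPM in DT HFD against 242 to 1765 CPM in DT SD, and 7 of 12 were higher by the edgeR test. Enterocyte markers reached 2610.4 CPM in DT HFD replicate 1 and 14.4 to 57.7 CPM in the other 6 libraries, with Apoc3, Sis and Alpi at 0 in all DT SD libraries. Without the 8 enterocyte-rich libraries of the series, of which this is the only one in these groups, all 4 genes passed, while with only this library left out Ins2 and Ucn3 missed (0.05833 and 0.09318). The adjusted p in the former fit was 0.00417 for Iapp to 0.0292 for Ins2. The part of these cells was not tested further.

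Of 14 genes of hormone processing and granules, 11 were lower in DT HFD than in DT SD and none higher, with a median log2 fold change of -1.18 against -0.01 over all genes. The granule protein Scg2 fell by 1.59, Pcsk1, which makes the first cut in proinsulin, by 1.55, Scg3 by 1.37 and Pam, the amidating enzyme of amylin, by 1.04 (edgeR adjusted p between 0.00862 and 0.0161). Of 13 beta-cell genes that are no hormone, 8 fell, led by G6pc2, the glucose-6-phosphatase of beta cells (-2.04, adjusted p = 0.00623), and Sytl4, a protein of the granule surface (-1.45, adjusted p = 0.0151). Of the 14 transcription factors, 13 lay below 0, with a median log2 fold change of -0.90. Glis3 (-1.03), Nkx6-1 (-1.25) and Pax6 (-0.96) fell, Tcf3 rose by 1.21 (edgeR adjusted p = 0.00315), and the other 10 did not pass. Mafa was at -0.17 (adjusted p = 0.793), a gene named with its value in view. Ramp3 and Ramp2, partners of the calcitonin receptor family, fell by 0.97 and 0.84, and Igf2, which lies beside Ins2, fell by 1.36 (adjusted p = 0.0186). None of 7 alpha-cell markers passed, though all 7 lay below 0, with a median log2 fold change of -0.59. Of 5 delta and PP-cell markers only Hhex, a transcription factor of delta cells, passed, with a rise of 0.64 (edgeR adjusted p = 0.0217). The other 4 lay below 0, and the median of the 5 was -0.311.

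**Figure D2:**
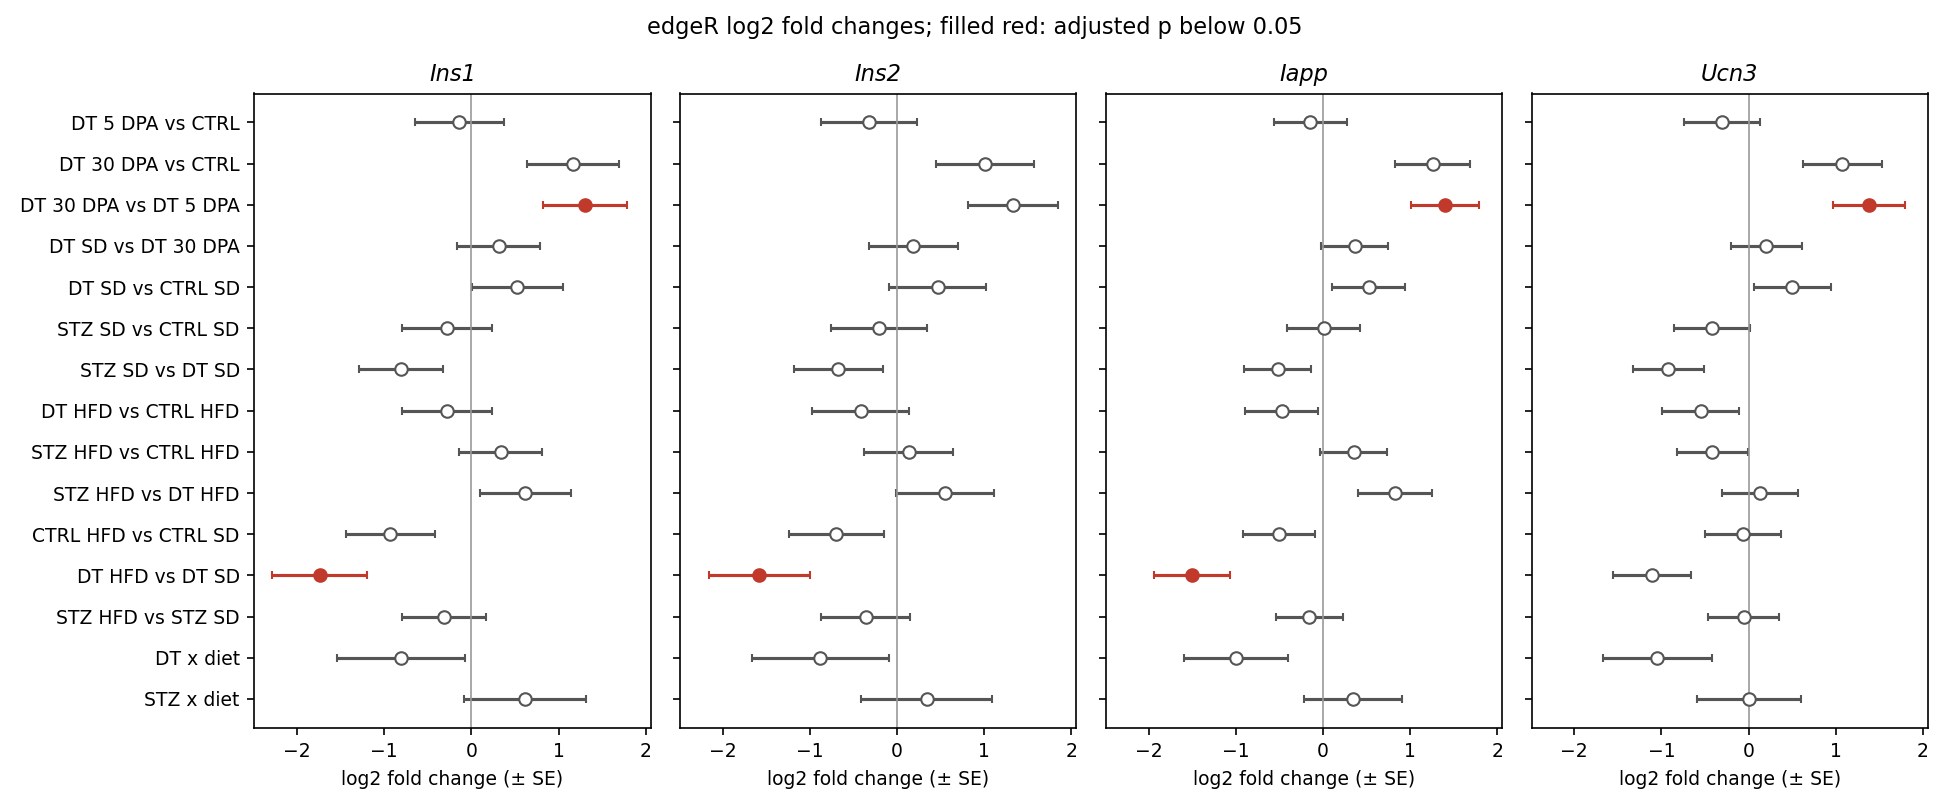
Log2 fold changes of the 4 genes (x axis, with SE as whiskers) in 13 comparisons of groups and 2 interactions of toxin and diet (y axis), from edgeR; filled red points have an adjusted p below 0.05. Only DT 30 DPA against DT 5 DPA and DT HFD against DT SD hold filled points, 3 of 4 genes in each.

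Other comparisons on HFD found no call among the 4 genes. In CTRL HFD replicates 2 to 5, Ins1 was at 38546.5, 24365.5, 9696 and 27685 CPM and Ucn3 at 269, 262, 161 and 273 CPM. Ins2 was at 112193, 66501, 23836 and 80125 CPM and Iapp at 7466, 6538, 4062 and 6580.2 CPM. Replicate 4 was the lowest library for each gene, with Ins2 further below the others than Ucn3. Against CTRL SD, Ins1 and Iapp were lower in all CTRL HFD libraries, as 4.23% of all genes were, with log2 fold changes of -0.93 (SE 0.51) and -0.50 (SE 0.41), while Ucn3 stood at -0.06 (SE 0.44). Here edgeR called 0 of all genes, no member had an unadjusted p below 0.05, and DESeq2 called none of the 4. DT HFD was lower than CTRL HFD on average, by -0.28 for Ins1 to -0.55 for Ucn3, with overlap for each gene, and none was called (smallest adjusted p = 0.5687, for Ucn3) beside 0.00568% of all genes. The DT effect on HFD differed from that on SD by -0.81 (SE 0.73) for Ins1, -0.88 (SE 0.79) for Ins2, -0.999 (SE 0.59) for Iapp and -1.05 (SE 0.63) for Ucn3, an interaction that passed for none of the 4 (adjusted p = 0.3842 to 0.5614) nor for any other gene. With the compared groups alone the unadjusted p was 0.0284 for Iapp and 0.0202 for Ucn3, and without the enterocyte-rich libraries 0.0335 and 0.036, where edgeR called 349 of all genes. None of the 4 passed after adjustment in either fit (smallest adjusted p = 0.1462 and 0.1438).

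In STZ HFD replicates 1 to 4, Ins2 was at 88463, 46066, 119659 and 55557 CPM and Ins1 at 34370.7, 18559, 52685 and 21045 CPM. Iapp was at 8939.9, 6372, 8341 and 7851 CPM, a narrower range, and Ucn3 at 204, 106, 284 and 129 CPM. Replicate 4 had 57.5% acinar counts, and its scaling shifts its place: by deposited TPM it was the lowest of the 33 libraries for Ins1, Ins2 and Ucn3, whereas by CPM replicate 2 of the same group was lower. Iapp was above every DT HFD library, as 5.15% of all genes were (0.83 on the log2 scale with SE 0.42, edgeR adjusted p = 0.3485). None of the 4 genes was called by edgeR or DESeq2, or had an unadjusted p below 0.05, in STZ HFD against DT HFD (0.341% of all genes called), against CTRL HFD (0.471%) or against STZ SD (0.136%). The interaction of STZ and diet lay between 0.00 (SE 0.60) for Ucn3 and 0.62 (SE 0.70) for Ins1, with no call among the 4 or any other gene.

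Ratios within a library do not depend on library scaling, and they showed where the 4 genes parted. A total of 65 exact two-sided permutation tests were made (5 ratios in 13 comparisons of groups), and none had an adjusted p below 0.05 (the smallest was 0.2653). Groups of 3 against 4 or 4 against 4 cannot go below 0.02857 in such a test. The raw p was below 0.05 in 7 of the 65. Ins1 was counted 33.4 to 47.4 times per 100 counts of Ins2 in the 33 libraries, with a median of 40.1. It was 33.4, 33.9 and 37.8 in CTRL and 47.4, 40.3, 39.8 and 39.6 in DT 5 DPA, which did not overlap (1.19-fold, exact permutation p = 0.02857, adjusted p = 0.2653). Iapp was counted 3.49 to 12.1 times per 100 insulin counts (Ins1 and Ins2 together), and no comparison had a raw p below 0.05.

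Ucn3 against insulin separated the untreated and DT groups on HFD from all others. Per 10000 insulin counts, Ucn3 was at 17.8, 28.9, 48.1 and 25.4 in CTRL HFD replicates 2 to 5 and at 20.4, 29.6 and 22.3 in DT HFD. All 7 libraries lay above the other 26, which ran from 10.8 to 17.4 with a median of 15.7, though CTRL HFD replicate 2 did so by a small margin over DT SD replicate 4. STZ HFD was inside the common range, at 16.6, 16.4, 16.5 and 16.8. DT HFD exceeded DT SD by 1.52-fold (exact permutation p = 0.02857, adjusted p = 0.2653) and CTRL HFD exceeded CTRL SD by 1.82-fold (p = 0.05714, adjusted p = 0.3377, exact permutation), neither with overlap. STZ HFD stood at 0.59 of CTRL HFD and 0.70 of DT HFD, and at 1.22 of STZ SD (exact permutation p = 0.02857, adjusted p = 0.2653 in each). STZ SD replicate 3 was the lowest library of all, at 10.8. This pattern was noticed in the data and the comparisons share groups, so the tests are not independent of each other.

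**Figure D3:**
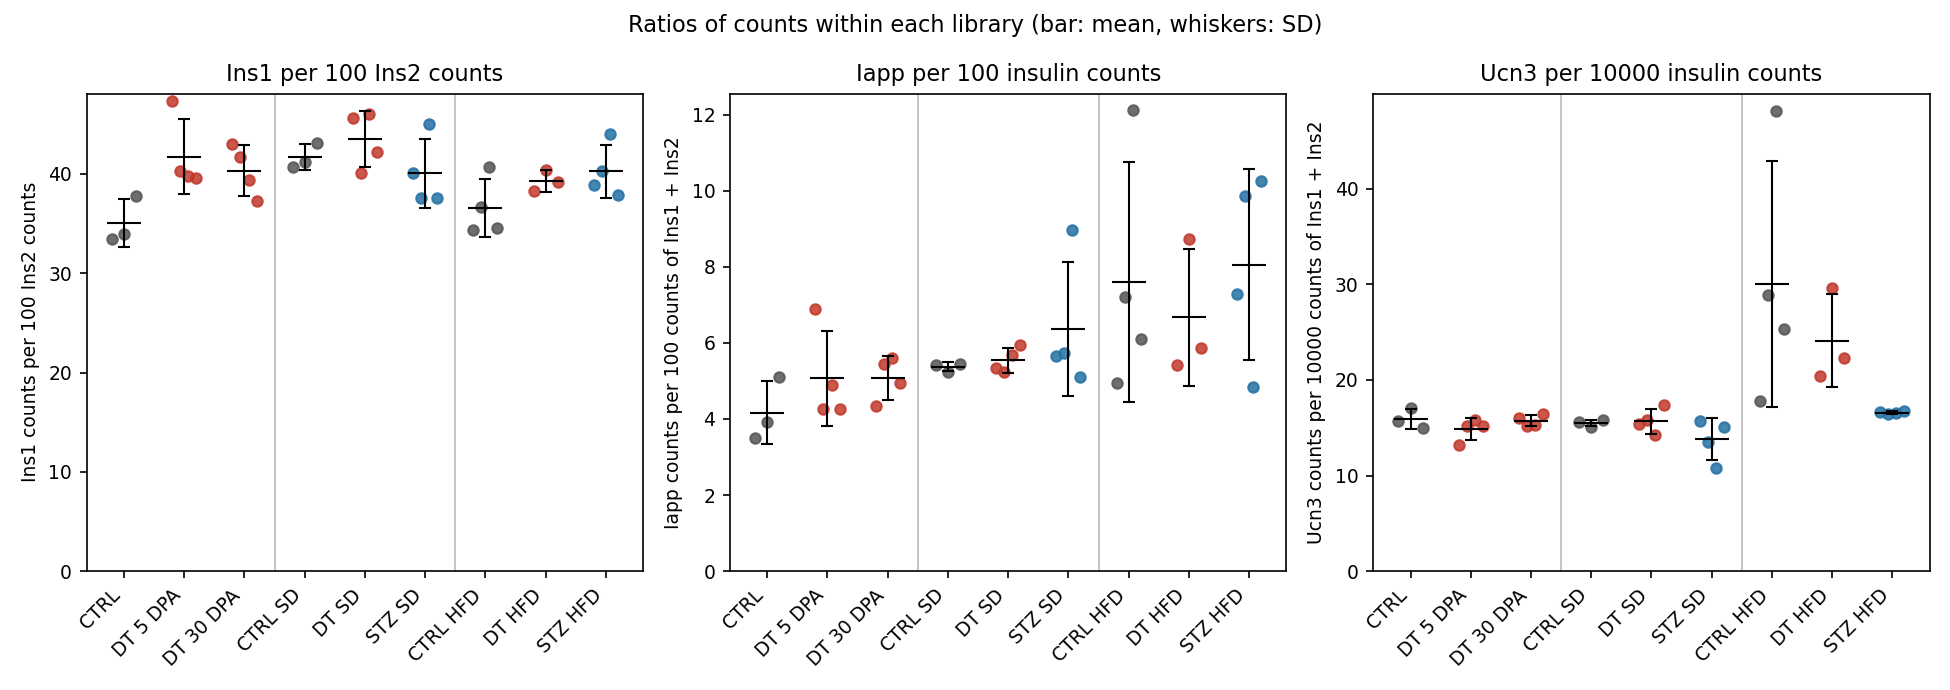
Counts of Ins1 per 100 Ins2, of Iapp per 100 insulin and of Ucn3 per 10000 insulin (y axes, linear from 0) in each library by group; points are libraries, lines means and whiskers SD. In the right panel the 7 libraries of CTRL HFD and DT HFD lie between 17.8 and 48.1, above the 26 others.

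Set against 13 other beta-cell genes, insulin had its lowest group means in CTRL HFD and DT HFD, and Ucn3 did not. The log2 ratio of insulin CPM to the mean of these genes was 9.62, 9.003, 7.74 and 9.09 in CTRL HFD replicates 2 to 5 and 9.27, 8.66 and 9.64 in DT HFD, against 9.80 to 9.93 in DT SD and 9.51 to 9.58 in CTRL SD. DT HFD lay below DT SD without overlap (0.62-fold, exact permutation p = 0.02857, adjusted p = 0.2653), and CTRL HFD overlapped with CTRL SD (p = 0.1714, adjusted p = 0.4286, exact permutation). The same log2 ratio for Ucn3 had means of 0.39 ± 0.24 in CTRL HFD (SD, n = 4) and 0.47 ± 0.31 in DT HFD (SD, n = 3), within the range of 0.08 to 0.55 of the other group means. DT SD was above CTRL SD in the insulin ratio by 1.25-fold without overlap (exact permutation p = 0.02857, adjusted p = 0.2653). Between 5 and 30 DPA the ratio differed by 1.014-fold, less than the spread between libraries (p = 0.9143, exact permutation). Against Gcg, insulin was counted 1.31 to 10.5 times as often, and CTRL HFD (1.38 to 3.97) lay below CTRL SD (4.27 to 5.64) without overlap (p = 0.05714, adjusted p = 0.3377, exact permutation).

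**Figure D4:**
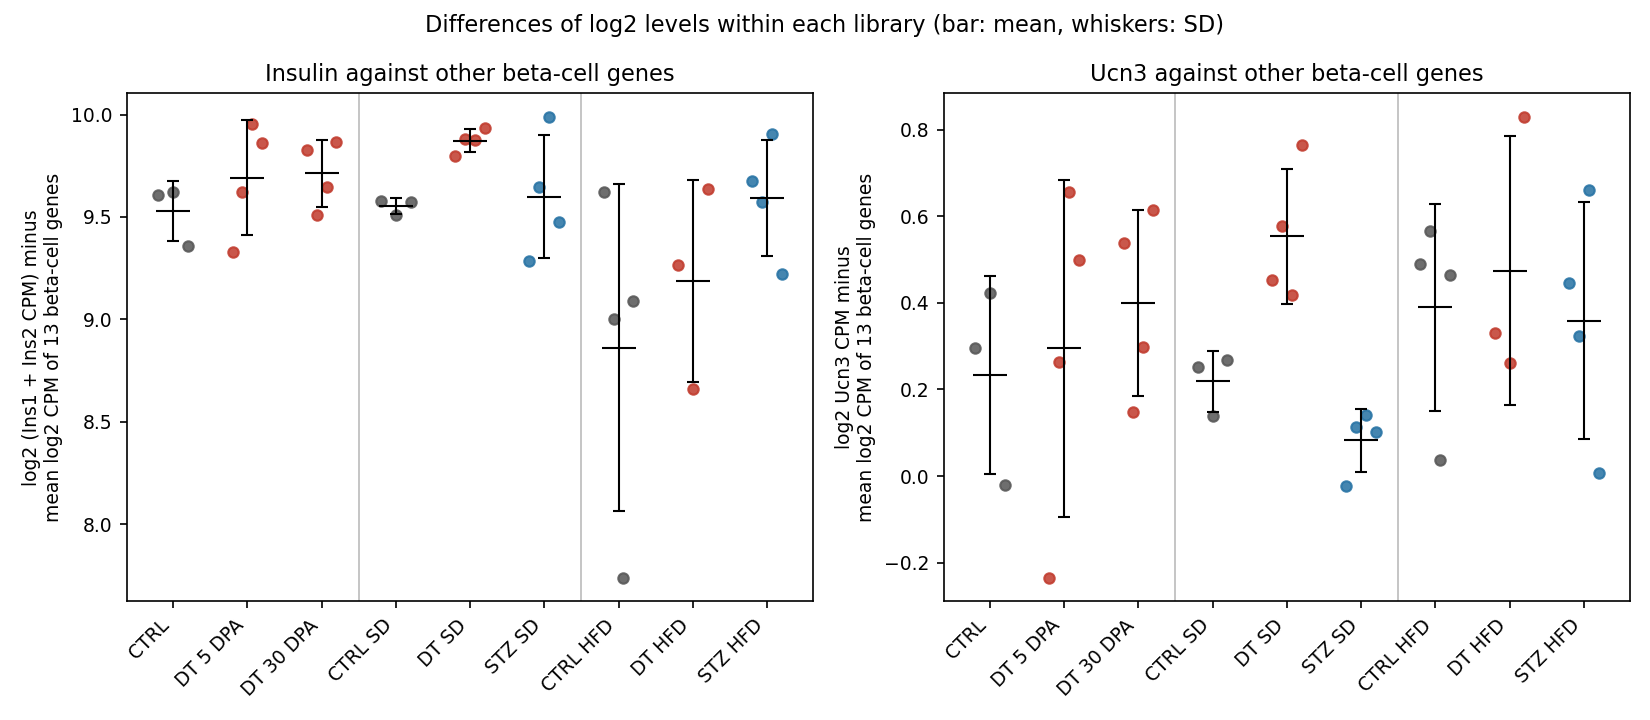
Log2 ratio of insulin (left) and Ucn3 (right) to the mean log2 CPM of 13 other beta-cell genes (y axes, which do not start at 0) in each library by group; points are libraries, lines means and whiskers SD. Insulin is lowest in CTRL HFD replicate 4, at 7.74, while the Ucn3 means of CTRL HFD and DT HFD, 0.39 and 0.47, lie among those of the other groups.

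Over the 33 libraries the log2 CPM of Ins1 and Ins2 ran together (Pearson r = 0.99), and those of the other pairs had r between 0.856 (Iapp and Ucn3) and 0.899 (Ins1 and Iapp). These values share the groups, the library scaling and the unequal amounts of other RNA, and are given as a description. The genes most like each of the 4 over the same 33 libraries were found in the same way. Left out were the 4 genes themselves and symbols that begin with Gm and a digit or with mt-, end in Rik or contain -ps. For Ucn3 they were Tmem215 (r = 0.975), Ppp1r1a (0.966), Sytl4 (0.959), Tmem206 (0.955) and Atp2a2 (0.948). For Iapp they were Wbp5 (0.948), Gnptg (0.944), Gnat2 (0.93), Nipal2 (0.924) and Efcab1 (0.923). Ins1 and Ins2 shared Wls (0.919 and 0.916), Enho (0.917 and 0.925) and Gpr45 (0.917 and 0.915), with Nell1 (0.908) and Aga (0.907) for Ins1 and Bace2 (0.915) and Fkbp1b (0.91) for Ins2.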

How the data were processed

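RNA of mouse islets was sequenced with a QIAseq stranded mRNA kit after RNeasy extraction, per the labels' protocols. Per the file headers, the authors deposited total read counts per gene, RPKM and TPM, and a column named CPM that is treated as a score of unknown scale and was not used. The build is mm10, per the submitters' processing notes. For the aligner, the counter and its strand setting, the sources used here give no name. Counts were tested with edgeR 4.0.16 (quasi-likelihood, TMM scaling, 1 fit over 33 libraries in 9 groups) in R 4.3.3 with limma 3.58.1, and p-values were adjusted by Benjamini-Hochberg over 17616 genes that passed filterByExpr (count minimum 10, total minimum 15), with a threshold of 0.05. All 4 hormone genes passed the filter. DESeq2 1.42.0, other scalings and filters, a replicate block, an acinar covariate and left-out libraries were alternatives, and the deposited RPKM served as an alternative for the ratios. Log2 CPM for likeness used a prior count of 2. Ratios were tested with exact two-sided permutation tests in Python 3.11.15 with scipy 1.17.1. The scripts were tested on simulated data. From each gene list, up to 4 called genes with the smallest adjusted p are named. For likeness the 5 genes with the highest correlation are named, among the tested genes whose symbols were not left out. The result of 1 listed gene is not reported here. The 4 genes and the lists were chosen with earlier results of these data known. No 2 libraries of the same group agreed within sampling noise (least chi-square per degree of freedom 27.271). Libraries of different groups, and the library in no group, were not compared in this way. Of the 34 libraries, 1 has a title and a treatment label that differ and entered no group. The table held 0 columns of other samples.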

Additional observations from a re-analysis of the deposited data

Results flagged for a closer look

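Among 54 sets of 4 libraries (a gene's level or a ratio in 1 group), 3 held a library far from the other 3, and chance gives about 1 in 20. Ucn3 in DT SD replicate 3 was the lowest of its group at 317 CPM, where the others lay at 366 to 375. Ucn3 in CTRL HFD replicate 4 was the lowest of its group at 161 CPM, where the others lay at 262 to 273. The log2 ratio of Ins1 to Ins2 counts in DT 5 DPA replicate 1 was the highest of its group at -1.08, or 47.4 Ins1 counts per 100 of Ins2 against 39.6 to 40.3.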

How the results depend on the processing

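Over 15 comparisons, the log2 fold changes of the 4 genes kept direction and side of the threshold in 564 of 600 values under other settings. With 1 library left out they did so in 447 of 500, and ratios kept their direction in 216 of 234 and 436 of 480. These shares say little about the calls, since the main fit called only 3 genes at 30 against 5 DPA and 3 in DT HFD against DT SD. Calls were lost in 17 values under other settings and in 19 with 1 library left out. Where a value turned or a call was lost, the cause was not tested. Differences below are log2. Without the enterocyte-rich libraries, 0 of the 4 genes were called at 30 against 5 DPA. The values against CTRL at 5 DPA turned to 0.105 for Iapp, 0.00523 for Ucn3 and 0.0611 for Ins1, and the interaction of STZ and diet to -0.019 for Iapp and -0.0449 for Ucn3. The ratio of Ins1 to Ins2 turned to 0.0012 at 30 against 5 DPA and -0.0337 in STZ HFD against STZ SD. Ucn3 to insulin turned to 0.0452 at 5 DPA and 0.0494 at 30 DPA against CTRL, and insulin to the beta-cell genes to -0.175 at 30 against 5 DPA. Without the acinar-rich libraries, 0 genes were called at 30 against 5 DPA and 0 in DT HFD against DT SD. Turned values were -0.60 for Iapp in STZ SD against CTRL SD, 0.236 for Ins2 and 0.283 for Ins1 in DT HFD against CTRL HFD, -0.0753 for Ucn3 in STZ HFD against DT HFD and 0.274 for Iapp in STZ HFD against STZ SD. Ins1 to Ins2 turned to -0.0171 in DT SD against DT 30 DPA and -0.0208 against CTRL SD. Iapp to insulin turned to -0.0325 at 30 against 5 DPA, -0.0514 in DT SD and -0.0102 in STZ SD against CTRL SD, and -0.14 in STZ HFD against CTRL HFD. Insulin to Gcg turned to -0.11 at 5 DPA against CTRL and 0.235 at 30 against 5 DPA, and insulin to the beta-cell genes to -0.196 in STZ SD against CTRL SD and 0.245 in STZ HFD against STZ SD. DESeq2 called 1 member at 30 DPA against CTRL, and a fit of the compared groups alone called 1 at 30 against 5 DPA. With the acinar covariate 0 were called in DT HFD against DT SD, and Iapp in STZ SD against CTRL SD (-0.0208) and the Ucn3 interaction of STZ and diet (-0.0031) turned. The replicate numbers were not taken to pair libraries, since no comparison with 3 or more pairs had a correlation of deviations over 0.1 in every pair, though some came near (0.084 to 0.647 at 5 DPA against CTRL, 0.065 to 0.44 in STZ HFD against DT HFD) and others did not (-0.123 to 0.365 at 30 against 5 DPA, -0.094 to 0.184 in DT HFD against DT SD). As a hint from the data, 6 of 6 libraries correlated best with their own number in STZ SD against CTRL SD, 5 of 6 at 30 DPA against CTRL and in STZ HFD against DT HFD, and 0 of 8 in STZ SD against DT SD. With the replicate block, 3 members were called at 30 against 5 DPA and 2 in DT HFD against DT SD, and Iapp in STZ SD against CTRL SD turned to -0.0747. With that block Ucn3 to insulin turned to -0.0436 in DT SD against CTRL SD, and insulin to Gcg to -0.0813 at 5 DPA and -0.106 at 30 DPA against CTRL. With 1 library left out, the Iapp log2 fold change ran from -0.518 to 0.505 in DT 5 DPA against CTRL, -0.211 to 0.28 in STZ SD against CTRL SD and -0.429 to 0.0622 in STZ HFD against STZ SD. The Ins2 log2 fold change ran from -0.671 to 0.0395 in DT 5 DPA against CTRL, -0.378 to 0.0459 in STZ SD against CTRL SD and -0.157 to 0.447 in STZ HFD against CTRL HFD. In the same way, the Ucn3 log2 fold change ran from -0.63 to 0.0318 in DT 5 DPA against CTRL, -0.2002 to 0.455 in STZ HFD against DT HFD, -0.126 to 0.091 in CTRL HFD against CTRL SD, -0.363 to 0.181 in STZ HFD against STZ SD and -0.302 to 0.242 in STZ by diet. The Ins1 log2 fold change ran from -0.497 to 0.311 in DT 5 DPA against CTRL, -0.618 to 0.109 in DT HFD against CTRL HFD and -0.024 to 0.622 in STZ HFD against CTRL HFD. In the same way, the number of members called ran from 0 to 1 in DT 30 DPA against CTRL, 1 to 4 in DT 30 DPA against DT 5 DPA and 0 to 2 in DT HFD against DT SD. The Ins1 to Ins2 ratio ran from -0.01002 to 0.0623 in STZ HFD against DT HFD, -0.0356 to 0.0651 in STZ HFD against STZ SD and -0.0785 to 0.015 in DT 30 DPA against DT 5 DPA. In the same way, the Iapp to insulin ratio ran from -0.0692 to 0.361 in STZ HFD against CTRL HFD, -0.0103 to 0.26 in STZ SD against DT SD, -0.0511 to 0.181 in DT 30 DPA against DT 5 DPA and -0.345 to 0.118 in DT HFD against CTRL HFD. The insulin to beta-cell reference ratio ran from -0.109 to 0.126 in STZ HFD against STZ SD, -0.0842 to 0.15 in STZ SD against CTRL SD, -0.101 to 0.108 in DT 30 DPA against DT 5 DPA and -0.0494 to 0.589 in DT HFD against CTRL HFD. In the same way, the Ucn3 to insulin ratio ran from -0.0588 to 0.0328 in DT 30 DPA against CTRL, -0.0558 to 0.0402 in DT SD against DT 30 DPA, -0.461 to 0.0165 in DT HFD against CTRL HFD and -0.0343 to 0.0618 in DT SD against CTRL SD. The insulin to Gcg ratio ran from -0.219 to 0.439 in DT 5 DPA against CTRL, -0.236 to 0.191 in DT 30 DPA against CTRL, -0.434 to 0.223 in DT 30 DPA against DT 5 DPA and -0.424 to 0.701 in DT HFD against CTRL HFD. Over all alternatives, edgeR or DESeq2 called 0 to 24 genes in CTRL HFD against CTRL SD, 0 to 4273 genes in DT 30 DPA against CTRL, 912 to 5936 genes in DT 30 DPA against DT 5 DPA, 320 to 1398 genes in DT 5 DPA against CTRL, 0 to 822 genes in DT HFD against CTRL HFD, 0 to 6481 genes in DT HFD against DT SD, 0 to 154 genes in DT SD against CTRL SD, 0 to 335 genes in DT SD against DT 30 DPA, 0 to 349 genes in DT by diet, 0 to 481 genes in STZ HFD against CTRL HFD, 0 to 663 genes in STZ HFD against DT HFD, 0 to 941 genes in STZ HFD against STZ SD, 0 to 689 genes in STZ SD against CTRL SD, 0 to 1340 genes in STZ SD against DT SD, 0 to 54 genes in STZ by diet. Groups of 3 or 4 libraries limit these comparisons more than counting error does.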

Other observations

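The library whose title names CTRL HFD and whose treatment label names DT was left in no group. Its levels were 16600.2 CPM for Ins1, 37962 for Ins2, 5488 for Iapp and 144 for Ucn3. It held 43.7 Ins1 counts per 100 of Ins2, 10.1 Iapp counts per 100 of insulin and 26.4 Ucn3 counts per 10000 of insulin, and insulin took 6.14% of its counts. In CTRL HFD the same levels ran from 9696 to 38546.5 CPM for Ins1, 23836 to 112193 for Ins2, 4062 to 7466 for Iapp and 161 to 273 for Ucn3.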
